A study of Mus musculus with 14 samples.

Results

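G protein-coupled receptors, the heterotrimeric G proteins they act through and the RGS proteins that shut those G proteins off were followed through sorted cells of the mouse mammary gland. The genes were those with probe sets of a single symbol whose symbol fell in one of the receptor, G protein or RGS families (Gpr, Gprc, Adgr, Rgs, Gna, Gnb, Gng, Adora, Adra, Adrb, Ptger, P2r, Lpar, S1pr, Edn, Htr, Agtr, F2r, Avpr, Calcrl and the like), with Rgs4, Rgs5, Ednrb, S1pr3 and Ptger3 left out. They numbered 57 of the 6044 named genes in the deposited table, measured by 87 of its 9645 probe sets, and probe sets of a gene were averaged. Matching by symbol alone took in 6 genes that are neither receptors of this type nor their G proteins, and these are named as such: the peptide ligand gene Edn1, the secreted protease gene Htra1, the ATP-gated channel genes P2rx4 and P2rx7, and the prostaglandin reductase genes Ptgr1 and Ptgr2. RefSeq lists 253 protein-coding mouse genes with symbols of these families. The authors had kept only probe sets with at least a 4-fold difference between some pair of arrays, so every gene present had to vary, and a gene that does not appear was not analysed here.

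A receptor of this superfamily crosses the membrane in 7 helices and, once its ligand binds, loads GTP onto a G protein alpha subunit, which then parts from the beta and gamma subunits. Alpha subunits of the Gs class raise cyclic AMP, those of the Gi class lower it, and Gq class subunits activate phospholipase C and calcium release. RGS proteins speed GTP hydrolysis by the alpha subunit and so end the signal. In the mammary gland this chemistry is best known from the contraction of myoepithelial cells around the alveoli at milk let-down.

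RNA came from glands of virgin female C57BL/6 mice, aged 6 to 8 weeks by the sample labels, and was hybridized to 14 arrays of 5 sorted populations. The luminal populations were CD24highCD49fmed cells (3 arrays), which the series' design text names luminal progenitors, and CD24medCD49f-/low cells (2 arrays), named differentiated luminal cells. The basal populations were Thy-1+CD24medCD49fhigh cells (3 arrays), named stem cells, Thy-1-CD24medCD49fhigh cells (3 arrays), named progenitors, and CD24medCD49fmed cells (3 arrays), named myoepithelial cells. No population was treated, the cells had been stained for CD45, CD31 and Ter119 to gate out blood and endothelial cells and were sorted a second time, and no source states whether replicates came from separate animals or from pools, so each p-value below measures only the spread between these arrays. Values are log2 signals from which the authors had subtracted each probe set's mean over the 14 arrays. A value of 0 is therefore the gene's own mean, and levels of different genes cannot be set against each other.

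The labels were checked against marker genes. All 13 luminal markers were called higher and 15 of 16 basal markers lower in luminal arrays. Thy1, the gene of the antigen used in the sort, had values of 2.00, -0.07 and 3.03 among Thy-1+CD24medCD49fhigh replicates 1, 2 and 3, against -0.77, -0.10 and -0.36 among Thy-1-CD24medCD49fhigh replicates, so Thy-1+CD24medCD49fhigh replicate 2 lay close to the Thy-1-CD24medCD49fhigh arrays. The same Thy-1+ arrays had whole-array medians of -0.74, 0.08 and -0.51, against -0.15 to 0.28 in the other 11 arrays. The median of 19 endothelial genes was 2.79, 0.04 and -0.10 over Thy-1+CD24medCD49fhigh replicates, 0.45, -0.62 and -0.77 over Thy-1-CD24medCD49fhigh replicates and 2.39, 0.83 and -0.70 over CD24medCD49fmed replicates, although CD31 had been stained for. In the 5 luminal arrays it was between -1.0 and -0.73. The basal arrays numbered 3 had the highest luminal marker medians of their populations, at -0.31, -0.04 and -0.64. Other basal arrays were at -1.88 to -0.80 and luminal arrays at 1.60 to 2.10. The luminal keratin gene Krt19 was at 0.59, 1.15 and 0.54 in the basal arrays numbered 3 and Krt18 at 0.26, 0.43 and -0.23. For Krt19 the other basal arrays were at -2.84 to -1.28 and luminal arrays at 1.46 to 1.83.

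**Figure D1:**
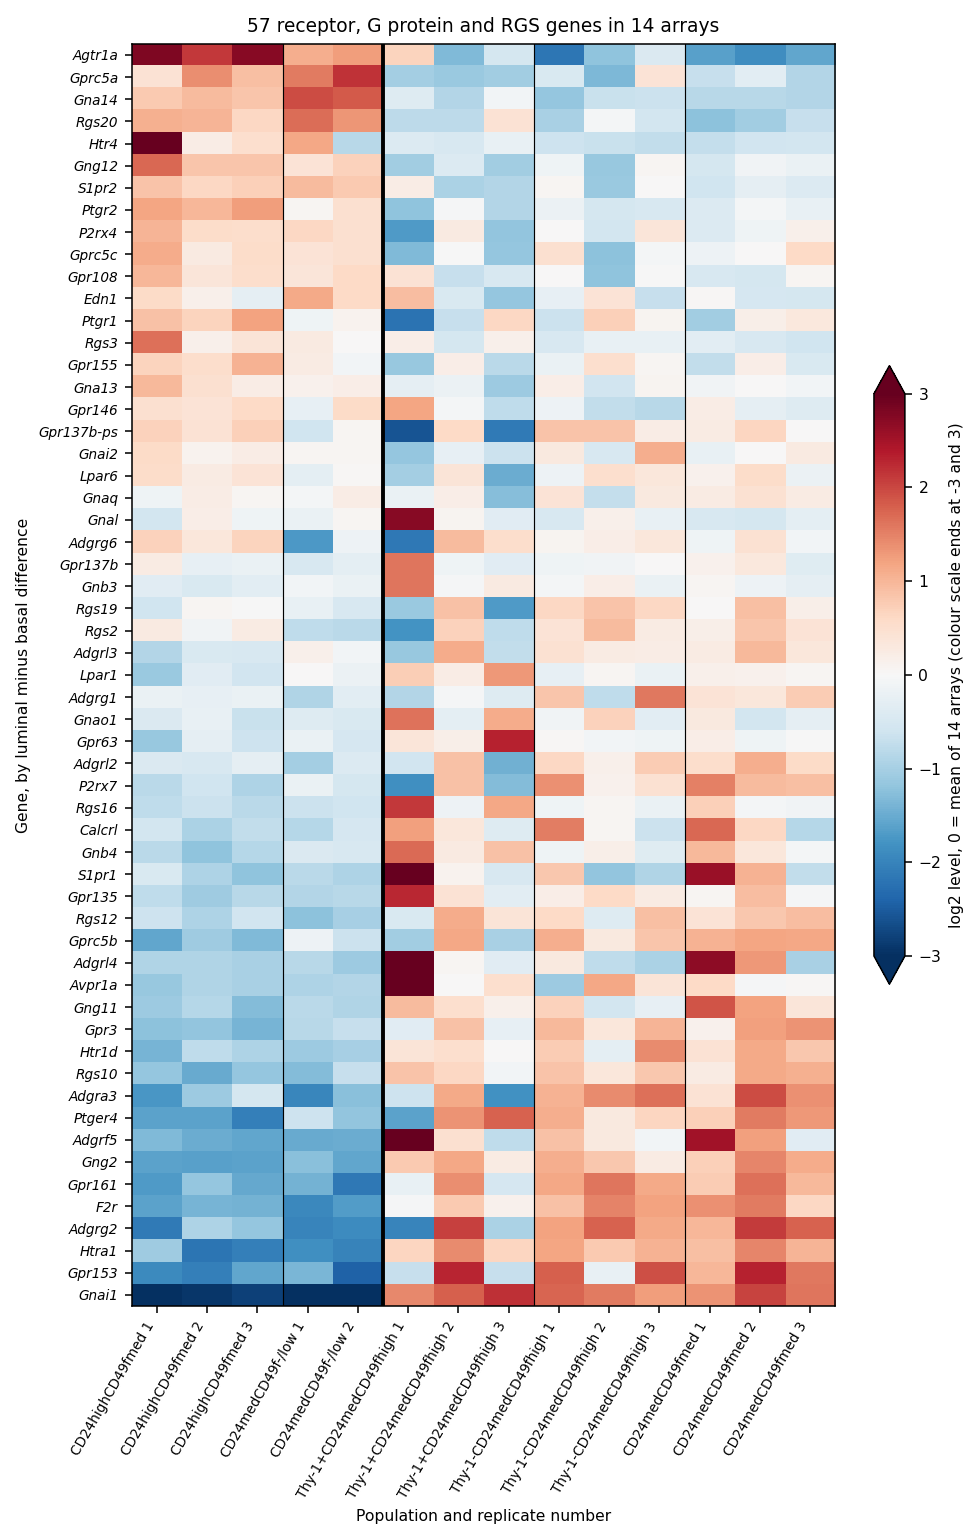
Heat map of the 57 genes (rows, by their luminal minus basal difference) in 14 arrays (columns, luminal populations left of the heavy line). Colour gives the log2 level, with 0 the mean of the 14 arrays and the scale ending at -3 and 3. Gnai1 was at -2.79 or below in the 5 luminal arrays and at 1.25 or above in the 9 basal arrays.

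The first comparison asked which of these genes separate luminal from basal cells (mean of 2 luminal minus mean of 3 basal populations, limma, two-sided, all 14 arrays). Of the 57 genes, 34 were called at an adjusted p under 0.05, against 45.1% of all 7190 rows tested. In luminal cells 11 were higher (27.7% of all rows were), and 23 were lower (17.4% of all rows). Luminal and basal arrays did not overlap for 24 of the 57, against 26% of all rows. The median difference was -0.62 for the 57 genes and 0.33 for all rows. With arrays median-centred, the median of all rows was 0.06, the calls were 1430 higher and 1569 lower over all rows (1989 and 1253 as deposited), and 8 of the 57 genes were higher and 29 lower. Of the 34 calls, 26 were made under each of the 21 alternative fits that were run over genes (7 higher and 19 lower), and 8 were lost in at least one: Adgrl2, Adgrl4, Calcrl, Gpr108, Gprc5c, Htr4, P2rx4 and Rgs16. Rank products called 21 of the 34 at p under 0.01. They lost 7 of those 8 (all but Htr4) and also Gnb4, Gng12, Gpr135, Ptgr2, Rgs12 and S1pr2. Some alternatives also called genes that were not called above. Median centring and quantile normalization each added Adgrg1, Adgrl3, Gpr63, Lpar1, P2rx7 and Rgs2. A fit with the replicate number as a block added P2rx7, Ptgr1 and S1pr1, and leaving out CD24highCD49fmed replicate 2 added Rgs3. Because these are bulk samples, a lower level can come from fewer cells of a type or from less RNA per cell, which cannot be told apart.

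Among the 7 alpha subunit genes, one was called in each direction and the other 5 were not called. Gnai1, an inhibitory alpha subunit that lowers cyclic AMP, had the largest difference of all 57. It stood at -3.16, -2.92 and -2.79 in CD24highCD49fmed arrays and at -3.02 and -3.07 in CD24medCD49f-/low arrays, against a lowest value of 1.25, a median of 1.60 and a highest of 2.20 in the 9 basal arrays. The arrays fell into a low and a high set without overlap, and within each set the populations lay close together. The difference was -4.66 (25.3-fold lower in luminal cells, SE 0.26, limma adjusted p = 9.09e-11), and its 3 probe sets gave -4.82, -3.50 and -5.67. Gnai2, the related inhibitory subunit, differed by 0.30 (SE 0.30, limma adjusted p = 0.403), and its luminal and basal arrays overlapped.

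Gna14, a Gq class subunit, went the other way. Its levels were 0.79, 0.95 and 0.83 in CD24highCD49fmed arrays and 1.95 and 1.85 in CD24medCD49f-/low arrays, against a lowest of -1.15, a median of -0.83 and a highest of -0.08 in basal arrays. In these averages all luminal arrays were above all basal arrays, and the CD24medCD49f-/low arrays were the highest. The difference was 2.08 (4.2-fold, SE 0.26, limma adjusted p = 2.50e-06), with 1.58, 1.80 and 2.87 on its 3 probe sets. On that with 1.58, Thy-1+CD24medCD49fhigh replicate 3 was at 0.38, above CD24highCD49fmed replicates 1 and 3 (0.32 and 0.37). Gnaq, the broadly used Gq class subunit, differed by 0.10 (SE 0.30, adjusted p = 0.801), and Gna13, a G12/13 class subunit, by 0.59 (SE 0.28, adjusted p = 0.0887). The probe sets of Gnaq and of Gna13 disagreed with each other across arrays, so these averages are uncertain. Gnal, a Gs class subunit known from olfactory neurons, and the inhibitory Gnao1 differed by -0.18 (adjusted p = 0.716) and -0.68 (adjusted p = 0.0947) in the limma fit.

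Of the 5 beta and gamma subunit genes, 3 were lower in luminal cells, 1 was higher and 1 was not called. Gng2, a gamma subunit, was at -1.60, -1.62 and -1.60 in CD24highCD49fmed arrays and -1.25 and -1.55 in CD24medCD49f-/low arrays, against 0.24 to 1.46 with a median of 0.80 in basal arrays. No basal array came near the luminal values. The difference was -2.35 (5.1-fold lower, SE 0.28, limma adjusted p = 1.36e-06). Gng12, another gamma subunit, was the one that was higher, at 1.73, 0.84 and 0.83 in CD24highCD49fmed and 0.40 and 0.70 in CD24medCD49f-/low arrays, against -1.13 to 0.07 with a median of -0.40 in basal arrays. In these averages too the groups did not overlap, although the nearest arrays were only 0.40 and 0.07. It differed by 1.34 (2.5-fold, SE 0.29, limma adjusted p = 0.00102). On 1 of its probe sets the groups did overlap, with CD24medCD49f-/low replicate 1 at 0.22 and Thy-1-CD24medCD49fhigh replicate 3 at 0.29. Gng11 (-1.52, adjusted p = 5.42e-04) and Gnb4 (-1.12, adjusted p = 0.00459) were lower by limma as well, while the beta subunit gene Gnb3 was not called (-0.41, adjusted p = 0.247).

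**Figure D2:**
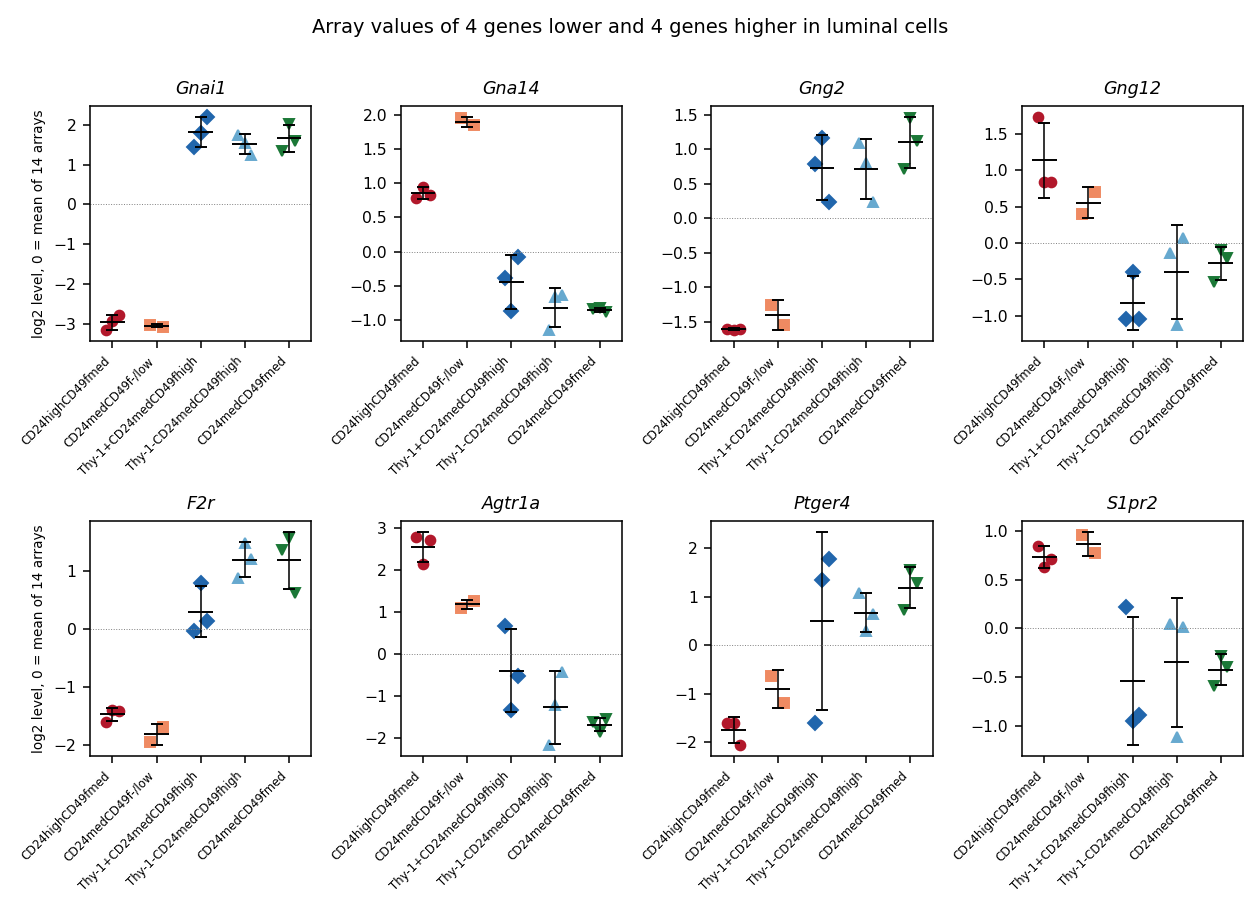
Array values of Gnai1, Gna14, Gng2, Gng12, F2r, Agtr1a, Ptger4 and S1pr2 in the 5 populations (log2 level, 0 is the mean of 14 arrays). Points are arrays, horizontal lines population means and bars SD (n = 3, and n = 2 for CD24medCD49f-/low). Gnai1 and Gng2 were low and Gna14 and Gng12 high in both luminal populations, and the Thy-1+CD24medCD49fhigh array at -1.61 is the only basal array within the luminal range of Ptger4.

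Of 7 RGS genes, 3 were lower in luminal cells, 1 higher and 3 not called. Rgs10 fell by 1.79 (SE 0.28, limma adjusted p = 4.28e-05). Its luminal arrays were at -1.17, -1.51, -1.17, -1.30 and -0.69, against -0.08 to 1.13 with a median of 0.82 in basal arrays, without overlap. Rgs12, whose protein carries several signalling domains beside its RGS domain, was lower as well (-1.38, SE 0.31, limma adjusted p = 0.00128). Rgs16 differed by -1.06 (adjusted p = 0.0129), but its basal arrays had a median of -0.05 and reached 2.13 in Thy-1+CD24medCD49fhigh replicate 1 and 1.16 in replicate 3. Rgs20, whose protein acts on Gi class subunits, was the one that was higher, at 1.07, 1.01 and 0.61 in CD24highCD49fmed and 1.68 and 1.33 in CD24medCD49f-/low arrays, against -1.24 to 0.44 with a median of -0.78 in basal arrays. In these averages Thy-1+CD24medCD49fhigh replicate 3, at 0.44, alone came near the lowest luminal array. The difference was 1.83 (3.6-fold, SE 0.29, limma adjusted p = 4.80e-05), and the 2 probe sets gave 1.34 and 2.33, with profiles over the arrays that were only loosely alike. On each probe set alone, luminal and basal arrays overlapped. On that with 2.33, Thy-1+CD24medCD49fhigh replicate 3 was at 1.27, above CD24highCD49fmed replicates 2 and 3 (1.01 and 1.09). On that with 1.34, Thy-1+CD24medCD49fhigh replicate 1 was at 0.83, above CD24highCD49fmed replicates 1 and 3 (0.78 and 0.14). Rgs2, Rgs3 and Rgs19 were not called (-0.46, 0.72 and -0.41, adjusted p = 0.274, 0.0507 and 0.354 in the limma fit).

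All 6 receptors for peptides, proteases and amines were called, 2 higher and 4 lower, where 45.1% of all rows were called. With so few genes in a class, this count and those of the other classes describe the genes only. Agtr1a, a receptor of angiotensin II, had the largest rise of the 57 genes. It was at 2.79, 2.13 and 2.72 in CD24highCD49fmed and 1.10 and 1.26 in CD24medCD49f-/low arrays, against -2.16 to 0.66 with a median of -1.32 in basal arrays. All luminal arrays were above all basal arrays, the nearest basal one being Thy-1+CD24medCD49fhigh replicate 1, and the difference was 2.97 (7.9-fold, SE 0.34, limma adjusted p = 1.17e-06). F2r, the thrombin receptor PAR1 that a protease switches on by cutting it, was at -1.60, -1.39 and -1.41 in CD24highCD49fmed and -1.94 and -1.68 in CD24medCD49f-/low arrays, against -0.04 to 1.56 with a median of 0.88 in basal arrays. Its difference was -2.53 (5.8-fold lower, SE 0.28, limma adjusted p = 5.20e-07), again without overlap. The serotonin receptors parted: Htr1d, which couples to Gi, was lower (-1.61, SE 0.30, adjusted p = 2.49e-04), and Htr4, which couples to Gs, was higher (1.40, SE 0.47, adjusted p = 0.0208). Htr4 rested on few arrays, with 3.88 in CD24highCD49fmed replicate 1 and 1.17 in CD24medCD49f-/low replicate 1, against 0.22, 0.50 and -0.83 in the other luminal arrays. Without that CD24highCD49fmed array its limma difference was 0.82 (adjusted p = 0.0658), and without that CD24medCD49f-/low array it was 0.90 (adjusted p = 0.198). Avpr1a, a vasopressin receptor, differed by -1.49 (adjusted p = 0.0113) and Calcrl, which with RAMP proteins forms the receptors of CGRP and adrenomedullin, by -1.11 (adjusted p = 0.0361). Avpr1a reached 3.27 in Thy-1+CD24medCD49fhigh replicate 1, against a basal median of 0.38.

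Of 5 receptors for lipid mediators, Ptger4 and S1pr2 were called, in opposite directions. Ptger4, the EP4 receptor of prostaglandin E2, was at -1.60, -1.60 and -2.06 in CD24highCD49fmed and -0.63 and -1.19 in CD24medCD49f-/low arrays. Basal arrays were at 0.29 to 1.77 except for Thy-1+CD24medCD49fhigh replicate 1 at -1.61, which lay among the luminal ones. The difference was -2.12 (4.3-fold lower, SE 0.43, limma adjusted p = 4.72e-04). S1pr2, a receptor of sphingosine 1-phosphate, was at 0.85, 0.63 and 0.72 in CD24highCD49fmed and 0.96 and 0.78 in CD24medCD49f-/low arrays, against -1.12 to 0.22 with a median of -0.40 in basal arrays, without overlap (1.25, SE 0.30, limma adjusted p = 0.00202). S1pr1, a second receptor of the same lipid, was not called (-1.34, SE 0.55, adjusted p = 0.0517), and neither were the lysophosphatidic acid receptors Lpar1 (-0.62, adjusted p = 0.067) and Lpar6 (0.24, adjusted p = 0.533).

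The adhesion receptors, which carry long extracellular regions that bind matrix and neighbouring cells, leaned to the basal side. All 8 had a difference below 0 (2824 of all 7190 rows did) and 5 were called lower (17.4% of all rows were), with a median of -1.15. Adgrg2 differed by -2.56 (SE 0.47, limma adjusted p = 2.13e-04), Adgrf5 by -2.31 (SE 0.51, adjusted p = 0.00116) and Adgra3 by -2.10 (SE 0.41, adjusted p = 3.46e-04). Adgrg2 was at -2.11 to -0.92 in luminal arrays and at 1.00 to 2.09 in 7 basal arrays, while Thy-1+CD24medCD49fhigh replicates 1 and 3 were at -1.99 and -0.95, within the luminal range. Adgra3 had the same 2 arrays low, at -0.63 and -1.81. Adgrl4 (-1.46, adjusted p = 0.0397) and the latrophilin Adgrl2 (-0.84, adjusted p = 0.0464) were close to the threshold and lost the call in some alternative fits. Over the basal arrays Adgrl4 and Adgrf5 followed the endothelial median (r = 0.99 and 0.94), as described below. Adgrg1, Adgrg6 and Adgrl3 were not called (-0.62, -0.21 and -0.48, adjusted p = 0.139, 0.683 and 0.246 in the limma fit). The 0 of 8 adhesion receptors that were higher can be set against 27.7% of all rows, with no test of the class.

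Of 13 genes grouped as orphan receptors, for which no ligand is settled or which only resemble receptors, 5 were lower, 3 higher and 5 not called. Gpr153 was at -1.91, -2.06 and -1.56 in CD24highCD49fmed and -1.36 and -2.42 in CD24medCD49f-/low arrays, against -0.70 to 2.32 with a median of 1.59 in basal arrays. The groups did not overlap, and the lowest basal arrays were Thy-1+CD24medCD49fhigh replicates 1 and 3 (-0.70 and -0.68) and Thy-1-CD24medCD49fhigh replicate 2 (-0.23). The difference was -2.90 (7.5-fold lower, SE 0.47, limma adjusted p = 5.79e-05). Gpr161, a receptor of the primary cilium that restrains Hedgehog signalling, fell by 2.51 (SE 0.33, limma adjusted p = 4.68e-06), and Gpr3, which raises cyclic AMP without an added ligand, by 1.61 (adjusted p = 2.70e-04). The class C orphan family was divided: Gprc5a was higher (2.12, SE 0.31, adjusted p = 1.82e-05), Gprc5c was higher by less (0.87, adjusted p = 0.0388) and Gprc5b was lower (-1.38, adjusted p = 0.00279). Gprc5a was at 0.44, 1.39 and 0.91 in CD24highCD49fmed and 1.57 and 2.17 in CD24medCD49f-/low arrays, against -1.35 to 0.42 with a median of -0.88 in basal arrays, so the groups met at 0.44 and 0.42. Gpr108 was higher (0.87, adjusted p = 0.0253) and Gpr135 lower (-1.35, adjusted p = 0.00443). Gpr137b-ps is annotated as a pseudogene of Gpr137b, and signals of such a near copy and its parent are uncertain; neither was called.

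Of the 6 genes of another kind, Htra1 was lower and Ptgr2 and P2rx4 were higher. Htra1 was at -1.06, -2.18 and -2.04 in CD24highCD49fmed and -1.83 and -2.0 in CD24medCD49f-/low arrays, against 0.64 to 1.47 with a median of 1.02 in basal arrays, without overlap (-2.85, SE 0.28, limma adjusted p = 1.57e-07). Ptgr2 differed by 1.15 (adjusted p = 0.0019) and P2rx4 by 0.98 (adjusted p = 0.0185), and in these averages neither had overlapping groups. Single probe sets of both genes did overlap. On 1 for Ptgr2, CD24medCD49f-/low replicate 1 was at -0.08 and CD24medCD49fmed replicate 2 at 0.32. On 1 for P2rx4, CD24highCD49fmed replicate 2 was at 0.27 and Thy-1-CD24medCD49fhigh replicate 3 at 0.45. That P2rx4 probe set alone was not called (0.74, limma adjusted p = 0.0803). P2rx7, Edn1 and Ptgr1 were not called (-0.91, 0.75 and 0.75, limma adjusted p = 0.0548, 0.076 and 0.124). The probe sets of P2rx7 differed, with -1.47 (limma adjusted p = 0.00387) on 1 and -0.35 (adjusted p = 0.489) on the other.

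**Figure D3:**
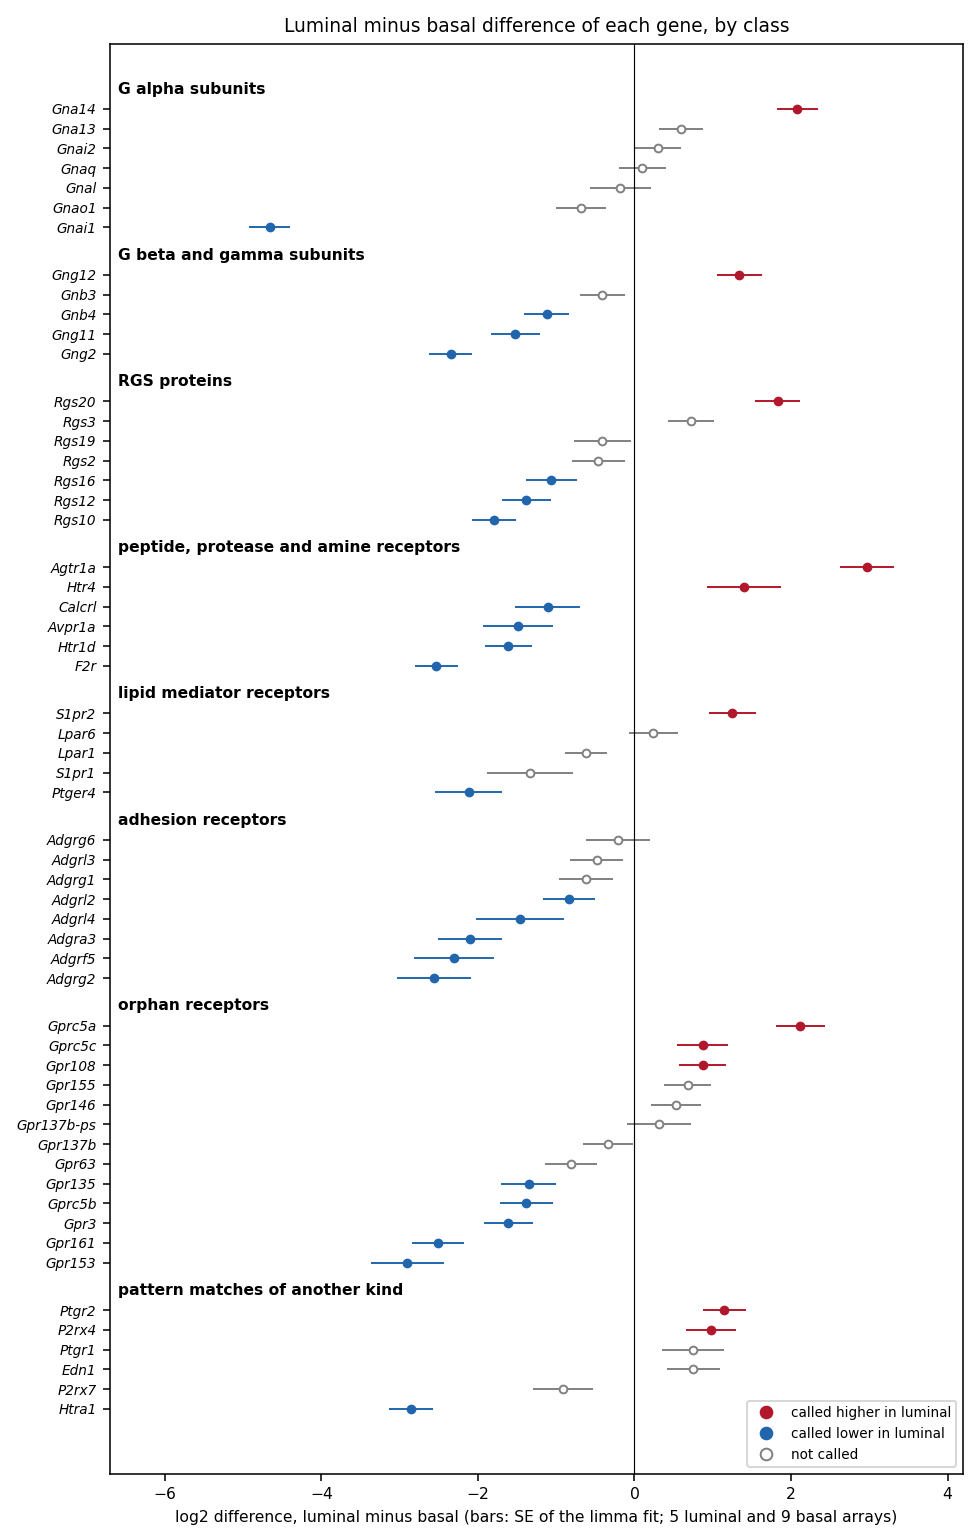
Luminal minus basal difference of each of the 57 genes (log2, horizontal axis) with the SE of the limma fit over 5 luminal and 9 basal arrays, grouped by class. Filled points passed an adjusted p of 0.05 (11 higher, 23 lower) and open points did not, and all 8 adhesion receptors lie below 0.

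Promoters of 2 of the genes lower and 2 of those higher in luminal cells are shown so that members that moved together can be read side by side. The RefSeq promoter table (build GRCm38.p6) held 44 of the 57 genes. Gnai1, Gpr153 and Gna14 were chosen for the size of their differences among genes with a window (Agtr1a and Gprc5a, with larger rises than Gna14, had none in that table) and S1pr2 for a match to the cyclic AMP response element. Each run is the 250 bases before the annotated start, on the gene's strand, with matches to any of 7 searched motifs in capitals, on either strand: the cyclic AMP response element TGACGTCA, the AP-1 motif TGANTCA, the TATA box TATAAA, the GC box GGGCGG, the TEAD motif GGAATG, the GATA motif AGATAA and the CArG box.
Gnai1, chr5:18360414-18360663, minus strand: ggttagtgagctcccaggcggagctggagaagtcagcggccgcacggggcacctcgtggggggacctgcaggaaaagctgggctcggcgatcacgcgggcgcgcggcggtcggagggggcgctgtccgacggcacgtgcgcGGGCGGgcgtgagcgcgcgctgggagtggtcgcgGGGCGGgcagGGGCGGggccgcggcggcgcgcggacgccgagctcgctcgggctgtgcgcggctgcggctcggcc
Gpr153, chr4:152273862-152274111, plus strand: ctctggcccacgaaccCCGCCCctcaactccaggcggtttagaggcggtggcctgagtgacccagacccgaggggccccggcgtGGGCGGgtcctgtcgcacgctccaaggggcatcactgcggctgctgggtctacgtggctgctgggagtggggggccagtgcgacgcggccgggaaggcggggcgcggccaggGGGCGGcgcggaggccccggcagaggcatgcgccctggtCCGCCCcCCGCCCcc
S1pr2, chr9:20976794-20977043, minus strand: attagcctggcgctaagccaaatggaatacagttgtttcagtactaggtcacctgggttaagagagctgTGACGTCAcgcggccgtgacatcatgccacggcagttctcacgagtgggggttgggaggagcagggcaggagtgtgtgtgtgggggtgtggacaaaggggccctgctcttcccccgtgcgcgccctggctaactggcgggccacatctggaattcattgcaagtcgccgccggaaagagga
Gna14, chr19:16435417-16435666, plus strand: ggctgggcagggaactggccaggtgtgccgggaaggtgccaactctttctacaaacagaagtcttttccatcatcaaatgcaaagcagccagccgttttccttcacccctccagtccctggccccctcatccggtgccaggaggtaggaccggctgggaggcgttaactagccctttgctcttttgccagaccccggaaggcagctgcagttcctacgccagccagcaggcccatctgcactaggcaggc
Gnai1 had 3 GC box matches and Gpr153 had 5, S1pr2 had 1 response element match, which was the only one in the 44 genes, and Gna14 had none of the 7. The GC box, which Sp family factors bind, was present in 15 of 21 windowed genes called lower and in 1 of 6 called higher in luminal cells. Over all 44 its share was 63.6%, against 65.1% of 4787 measured genes with a window and 35.4% of 27025 genes in the table, so the 44 genes held it about as often as measured genes did. The response element was in 2.27% of the 44 and 2.90% of measured genes, and AP-1 matches were in 11.4% and 5.91%. No match with a CArG box, bound by serum response factor, was in the 44 windows, against 1.5% of measured genes. A match is a run of letters, and binding was not measured.

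The genes around the receptors were read from lists of named pathway genes. Over all rows 17.4% were lower and 27.7% higher in luminal cells, and the lists' counts were not tested against these shares. In a list of further receptors, 10 of 18 were lower and 3 higher (median -0.87). All but Npr3, a single-pass receptor of natriuretic peptides that was among the lower ones (-0.86, limma adjusted p = 0.0301), are seven-transmembrane receptors. Oxtr, the oxytocin receptor of the contracting myoepithelium, differed by -3.43 (SE 0.35, limma adjusted p = 2.18e-07), Lgr5, an R-spondin receptor, by -2.69 and the Wnt receptor Fzd7 by -2.04, while the fatty acid receptor Ffar4 was 2.21 higher (adjusted p = 5.95e-06).

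In the cyclic AMP list 7 of 16 were lower and 3 higher (median -0.46). Adcy7, an adenylyl cyclase, differed by -2.77 (SE 0.37, limma adjusted p = 6.49e-06), the anchoring protein gene Akap12 by -2.71 and Rapgef3, which encodes the cyclic AMP sensor Epac1, by -2.05, and the regulatory subunit gene Prkar2b was 1.60 higher (adjusted p = 1.08e-04). The phospholipase C and calcium list was more even, with 6 of 18 lower and 4 higher (median -0.17). Mylk, the calcium-dependent kinase of the myosin light chain, differed by -4.15 (SE 0.33, limma adjusted p = 1.19e-08), and the cation channel gene Trpc6 was 2.48 higher (adjusted p = 6.80e-04). Among genes that regulate receptors, 5 of 12 were lower and 4 higher (median 0.11). Gprin3 (-4.07, adjusted p = 1.20e-07) and Gpsm2, a partner of Gi class subunits in spindle orientation (-2.41, adjusted p = 1.58e-05), were lower by limma, as was Gpsm1 (-1.65, adjusted p = 0.002), and the arrestin-related Arrdc4 was higher (1.67, adjusted p = 5.11e-04).

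Of ligand genes and genes that make or break ligands, 8 of 23 were lower and 7 higher in luminal cells (median -0.47). Plpp1, which removes the phosphate of lysophosphatidic acid, differed by -2.87 (SE 0.40, limma adjusted p = 1.16e-05) and Nt5e, which makes adenosine from AMP, by -2.23 (SE 0.32, adjusted p = 1.24e-05). Spns2, an exporter of sphingosine 1-phosphate, was 1.90 higher (SE 0.29, limma adjusted p = 2.35e-05), while the sphingosine kinase gene Sphk1 was lower (-1.16, limma adjusted p = 0.0183). Of the receptors of this lipid, S1pr2 was higher and S1pr1 was not called. Maob, a monoamine oxidase that breaks down amine ligands, was lower (-1.66, limma adjusted p = 0.00361).

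The endothelial markers moved with some of these calls, so each gene was set beside their median. Over the 9 basal arrays, Adgrl4 and S1pr1, both known from blood vessels, followed that median with r = 0.99 each, Adgrf5 with 0.94, Gpr146 with 0.89, Gnb4 with 0.83, Calcrl with 0.82 and Gng11 with 0.81. With the whole-array median, r was -0.80 for Gnb4 and between -0.44 and 0.06 for the other 6. These are descriptions over 9 arrays of 3 populations that share a normalization, with no test. Adgrl4 was at 3.40, 0.05 and -0.34 in Thy-1+CD24medCD49fhigh arrays, 0.30, -0.77 and -0.96 in Thy-1-CD24medCD49fhigh arrays and 2.69, 1.30 and -0.98 in CD24medCD49fmed arrays, against -1.09 to -0.83 in luminal arrays. S1pr1 reached 3.00, 2.60 and 1.05 in the 3 basal arrays with the highest endothelial medians (Thy-1+CD24medCD49fhigh replicate 1 and CD24medCD49fmed replicates 1 and 2).

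Luminal against basal was fitted again without those 3 arrays, a choice made after the values were seen. The arrays were picked by the median that Adgrl4 and S1pr1 followed, so smaller differences of these genes were built into the choice. The refit describes the values and tests no cause. Adgrl4 then differed by -0.41 (limma adjusted p = 0.28), S1pr1 by -0.41 (0.406) and Calcrl by -0.52 (0.303), so the calls of Adgrl4 and Calcrl were lost. The calls of Adgrl2, Gprc5c, Htr4 and P2rx4 were lost as well, whose r with the endothelial median was -0.15, -0.25, 0.12 and -0.58. Adgrl4 and Calcrl also lost their calls when single arrays were left out, each of the 5 luminal arrays among them. Adgrf5 was still called (-1.44, limma adjusted p = 0.00297), as was Gng11 (-1.19, adjusted p = 0.0063). In that fit 30 of the 57 genes were called, against 36.5% of all rows. The endothelial genes themselves were lower in luminal cells, with 12 of 19 called and a median of -1.26, and their part in the results was not tested. Cdh5 and Pecam1, defining genes of endothelium, were at 2.76 and 3.08 in Thy-1+CD24medCD49fhigh replicate 1, and at -0.62 or below in all 5 luminal arrays.

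**Figure D4:**
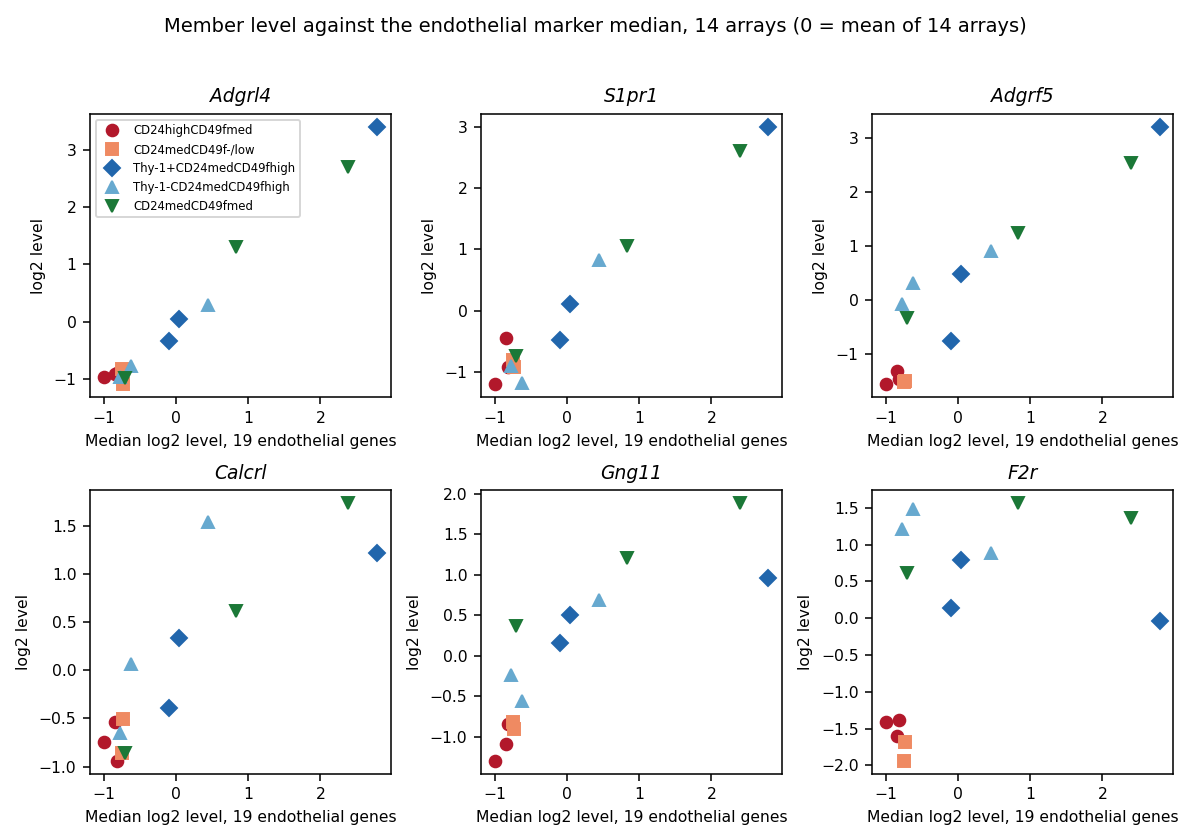
Level of 6 genes (vertical axis, log2, 0 is the mean of 14 arrays) against the median level of 19 endothelial genes (horizontal axis) in the 14 arrays, with 1 symbol per population. Adgrl4 and S1pr1 run along the diagonal to 3.40 and 3.00 at the array with an endothelial median of 2.79, while F2r is at -0.04 there and reaches 1.56 elsewhere.

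The second comparison set the luminal populations against each other (CD24highCD49fmed minus CD24medCD49f-/low, 3 against 2 arrays). Of the 57 genes 5 were called, against 5.59% of all rows, 4 of them higher (3.02% of all rows) and 1 lower (2.57% of all rows). The 217 higher and 185 lower calls over all rows became 123 and 282 after each array was centred on its median. Non-overlap of arrays is common with so few, at 29 of the 57 genes and 47.4% of all rows. Agtr1a, at 2.79, 2.13 and 2.72 in CD24highCD49fmed and 1.10 and 1.26 in CD24medCD49f-/low arrays, differed by 1.37 (2.6-fold, SE 0.24, limma adjusted p = 0.0217). Gna14 was the gene that was lower, at 0.79, 0.95 and 0.83 in CD24highCD49fmed against 1.95 and 1.85 in CD24medCD49f-/low arrays (-1.04, 2.1-fold, SE 0.18, limma adjusted p = 0.0201). Both genes had been higher in luminal than in basal cells, and each luminal population held the higher level of one of them.

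Rgs2, whose protein acts mainly on Gq class subunits, was at 0.28, -0.11 and 0.24 in CD24highCD49fmed and -0.77 and -0.81 in CD24medCD49f-/low arrays (0.93, SE 0.19, limma adjusted p = 0.0333). The prostaglandin reductase genes moved together. Ptgr1 was at 0.87, 0.66 and 1.21 in CD24highCD49fmed and -0.13 and 0.10 in CD24medCD49f-/low arrays (0.93, SE 0.22, limma adjusted p = 0.045), and Ptgr2 at 1.18, 0.99 and 1.26 against 0.06 and 0.49 (0.87, SE 0.20, limma adjusted p = 0.0473). In all 5 genes the arrays of the populations did not overlap.

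The calls of these 5 genes depended on the arrays and settings used. None of the 5 was called with all 14 arrays in 1 fit, without CD24medCD49f-/low replicate 1 or without CD24highCD49fmed replicate 3 (limma adjusted p of 0.824 or more, 0.206 or more and 0.0849 or more), and only Agtr1a and Gna14 were called after quantile normalization or after centring each array on its median. The differences themselves stayed in range, at 1.20 to 1.58 for Agtr1a and -1.28 to -1.0 for Gna14 over the alternative fits. All 5 were called with the replicate number as a block (Agtr1a adjusted p = 9.90e-04 by limma) and without CD24highCD49fmed replicate 1. The block fit rests on 2 same-numbered pairs that no label states, since CD24highCD49fmed replicate 3 has no partner. Its differences (1.28 for Agtr1a, -1.03 for Gna14) were those of the fit without that array, where none of the 5 was called. The myeloid marker median was -0.61 to -0.49 in CD24highCD49fmed arrays, against 1.98 in CD24medCD49f-/low replicate 1 and 0.23 in replicate 2, and 17 of 18 cell cycle genes were called higher in CD24highCD49fmed cells. Their part in the 5 differences was not tested. Of the pathway genes, 6 of 23 ligand genes were lower and 2 higher in CD24highCD49fmed cells, among them the prostaglandin E synthase gene Ptges (-1.39, limma adjusted p = 0.0497) and the serotonin synthesis gene Tph1 (2.19, adjusted p = 0.0222). Prkar2b was 1.59 higher (limma adjusted p = 0.0122) and Arrb1, a beta-arrestin that turns receptors off, was lower (-1.04, adjusted p = 0.025).

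**Figure D5:**
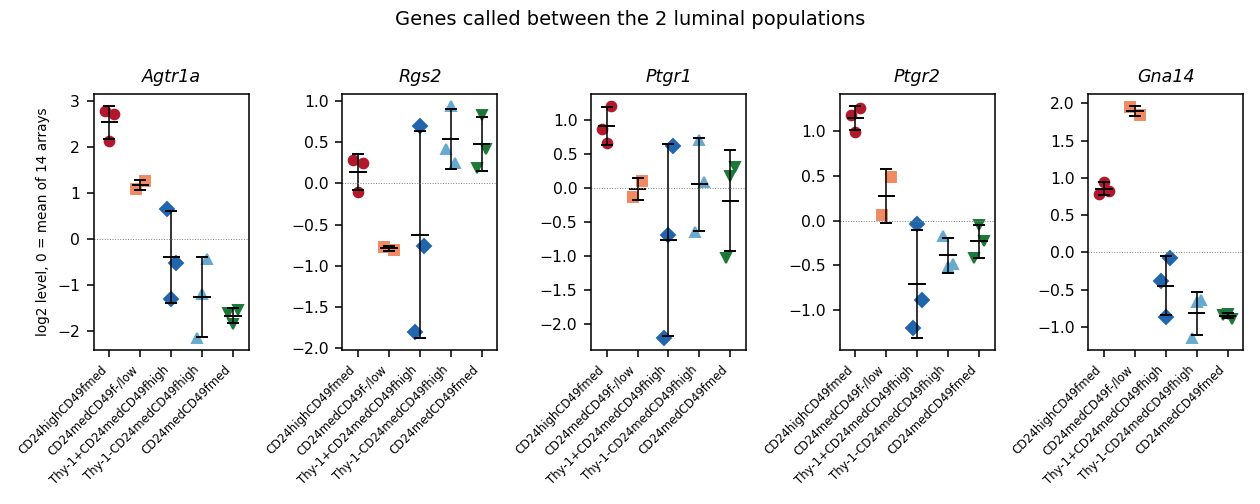
Array values of the 5 genes called between the luminal populations, in all 5 populations (log2 level, 0 is the mean of 14 arrays). Points are arrays, lines means and bars SD (n = 3, and n = 2 for CD24medCD49f-/low), and Gna14 is the gene with CD24medCD49f-/low above CD24highCD49fmed.

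The basal populations were compared in pairs, since the Thy-1 antigen was the variable of the study. Thy-1+CD24medCD49fhigh minus Thy-1-CD24medCD49fhigh gave 0 calls among the 57 genes (0.0417% of all rows, or 3 rows, were called), and 4 had an unadjusted p under 0.05, against 5.29% of all rows. Thy-1+CD24medCD49fhigh minus CD24medCD49fmed gave 0 calls in either the 57 genes or all rows (0%), with 6 of 57 at an unadjusted p under 0.05 (5.33% of all rows). Rank products at p under 0.01 called 1 of the 57 in each of these pairs, Gpr137b-ps in the one with Thy-1-CD24medCD49fhigh and Adgrg2 in the one with CD24medCD49fmed cells. Arrays did not overlap for 5 of the 57 genes in the first of these pairs (6.66% of all rows) and for 9 in the second (8.86% of all rows). With the replicate number as a block, which paired these arrays, 55 rows and 0 of the 57 genes were called in the second of these pairs. Thy-1-CD24medCD49fhigh minus CD24medCD49fmed also gave 0 (0% of all rows), with 1 of 57 under an unadjusted 0.05 (1.17% of all rows) and 3 by rank products (Adgrl4, Gng11 and S1pr1). The smallest limma p of the 57 genes in the first pair belonged to Gpr137b-ps (-2.01, SE 0.71, adjusted p = 0.699).

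The spread within Thy-1+CD24medCD49fhigh cells was wide. Replicate 1 held the highest value of all 14 arrays for 12 of the 57 genes and the lowest for 11, where 13.7% of all rows had their highest and 35.1% their lowest value. Avpr1a was at 3.27, 0.01 and 0.50, Gnal at 2.72, 0.09 and -0.34, Gpr135 at 2.27, 0.43 and -0.32, and Rgs16 at 2.13, -0.15 and 1.16 in replicates 1, 2 and 3. Each of these was highest in replicate 1. Replicate 3 stood out for Gpr63, at 2.31, with 0.37 and 0.17 in replicates 1 and 2. The median of pericyte markers was 2.11 in Thy-1+CD24medCD49fhigh replicate 1, against at most 0.57 in every other array. That of fibroblast markers was 1.80 in replicate 3, against at most 0.46 in every other array. The part of such cells in these values was not tested.

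A further set was low in Thy-1+CD24medCD49fhigh replicates 1 and 3 and not in replicate 2. Gpr137b-ps was at -2.60, 0.60 and -2.11, against 0.85, 0.86 and 0.22 in Thy-1-CD24medCD49fhigh and 0.24, 0.64 and 0.00 in CD24medCD49fmed arrays. P2rx7, an ATP-gated channel, was at -1.83, 0.88 and -1.30, against 1.37, 0.13 and 0.45 in Thy-1-CD24medCD49fhigh and 1.52, 0.94 and 0.91 in CD24medCD49fmed arrays. Adgrg2, Adgra3, Gpr153 and Rgs19 had the same arrangement. Over the 9 basal arrays these 6 genes followed the whole-array median with r between 0.83 and 0.94, given as a description. Others of the 57 had r as high, such as Gprc5b at 0.97 and Ptgr2 at 0.96. The 6 genes were grouped by low values in replicates 1 and 3, the arrays with the lowest whole-array medians. A high r therefore came with that choice. Replicate 2, whose Thy1 level lay near the Thy-1-CD24medCD49fhigh arrays and whose whole-array median was nearest 0 of the 3, was close to the other basal arrays in these genes. Without it, Thy-1+CD24medCD49fhigh minus CD24medCD49fmed had 8 of the 57 genes called, all lower, against 11.9% of all rows (856, of which 774 were lower). These 8 include the 6 genes just described, so the count restates their arrangement and is no further support for it. Thy-1+CD24medCD49fhigh minus Thy-1-CD24medCD49fhigh without the same array had 0 of the 57 genes called, against 0.139% of all rows (10 rows), with limma adjusted p = 0.0581 for Gpr137b-ps, 0.0723 for Adgrg2 and 0.0877 for Adgra3. At an unadjusted p under 0.05 it had 15 of the 57, against 25.1% of all rows. The remaining Thy-1+CD24medCD49fhigh arrays were those with the low whole-array medians, and the part of those medians was not tested. With all 3 arrays in the fit, the median difference of all rows was -0.51 against CD24medCD49fmed cells and -0.42 against Thy-1-CD24medCD49fhigh cells.

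Between Thy-1-CD24medCD49fhigh and CD24medCD49fmed cells, the genes with the smallest p were Gng11, S1pr1 and Adgrl4 below 0 and Rgs20 and Gpr155 above. Gng11 was at 0.69, -0.56 and -0.24 in Thy-1-CD24medCD49fhigh and 1.88, 1.20 and 0.37 in CD24medCD49fmed arrays (-1.18, SE 0.46, limma adjusted p = 0.999). The values of the populations overlapped, while within each of the 3 same-numbered pairs the Thy-1-CD24medCD49fhigh array was the lower one (adjusted p = 0.758 with the replicate number as a block, limma). The endothelial median differed in the same direction, being -1.15 over 19 genes. Rgs20 was at -0.98, -0.06 and -0.55 against -1.24, -1.04 and -0.70 (0.46, SE 0.34, limma adjusted p = 0.999). In these averages Thy-1-CD24medCD49fhigh replicates 2 and 3 lay above all CD24medCD49fmed arrays. The same held on 1 of its 2 probe sets, where these replicates were at 0.59 and -0.22. On the other they were at -0.71 and -0.87, below CD24medCD49fmed replicate 3 at -0.41 and above replicates 1 and 2 of that population. None of the 57 genes had separate arrays between the Thy-1-CD24medCD49fhigh and CD24medCD49fmed populations, where 3.74% of all rows did.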

How the data were processed

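RNA of sorted mammary cells was measured on 14 Affymetrix mouse genome arrays. The authors deposited one table of log2 values: arrays had been normalized together by robust multichip average (RMA) in MIDAS, weak or little-varying probe sets (below a signal minimum, or under a 4-fold span) removed with Cluster, and every remaining probe set centred on its own mean. The submitters' processing notes also name GCRMA, with software versions not given in the sources used here. The table held 9645 probe sets with a smallest row range of 2.0 log2. Those with 1 symbol (8499) were averaged to 6044 named genes, and 199 with several symbols and 947 with none stayed as single rows, so 7190 rows were tested. Updating symbols through Entrez IDs changed 0 symbols, so that alternative was not run apart. Signal over background was not used here, so no filter on dim probe sets was made, and the number of arrays limits the precision.

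Each contrast was a two-sided moderated limma test (version 3.58.1, R 4.3.3) fitted to only those arrays whose populations it involved, with a Benjamini-Hochberg adjusted p under 0.05 over all rows as the threshold ("called"). SE is that of the fit. A rank product test coded with numpy 2.4.6 and pandas 2.3.3 (Python 3.11.15) used 100 permutations within arrays and a threshold of unadjusted p under 0.01. The tests were tried on simulated data before use. Genes were named by a rule: in each comparison at most 12 called ones by size in either direction, at most 3 in either direction by smallest p if no gene passed, the gene of each class with the widest range of population means, and up to 4 called genes of each pathway list. Other genes are given for completeness, chosen after their values were seen. The genes, classes and lists were chosen with earlier results of these data known. Alternatives were a joint fit of the 14 arrays (luminal against basal: the arrays of a lineage as 1 group), replicate number as a block, unaveraged probe sets, median centring of arrays, quantile normalization, a minimum size of 1 log2 for a call, rank products, omission of each array in turn, and, added after the values were seen, 3 further choices of arrays for luminal against basal cells.

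As a check of pairing, deviations from population means were correlated between same-numbered arrays. CD24medCD49fmed arrays deviated together with same-numbered Thy-1+CD24medCD49fhigh arrays (r = 0.388, 0.391 and 0.386) and Thy-1-CD24medCD49fhigh arrays (0.374, 0.328 and 0.558), which were taken as pairs from the data. Thy-1+CD24medCD49fhigh and Thy-1-CD24medCD49fhigh arrays did not (-0.002, -0.16 and 0.245), and the luminal populations share only 2 numbers. Promoter windows were read from a RefSeq table (GRCm38.p6) and searched for motifs on both strands. Figures were drawn with matplotlib 3.10.9. One pathway list is not reported here.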

Additional observations from a re-analysis of the deposited data

How the results depend on the processing

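Between luminal and basal cells, 3242 rows and 34 of the 57 genes were called. Rank products called 1240 rows and 21 genes. Leaving out one array gave 2124 to 4270 rows (lowest without CD24medCD49f-/low replicate 2) and 26 to 43 genes. The 3 array choices made after seeing the data gave 38 genes without Thy-1+CD24medCD49fhigh replicates 1 and 3, 30 without the 3 arrays of highest endothelial median and 34 without the basal arrays numbered 3.

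Between the luminal populations, 402 rows and 5 genes were called. The counts were 4 rows and 0 genes with all 14 arrays in 1 fit, 829 and 10 with the replicate number as a block, 608 rows with probe sets as rows, 3 genes after median centring, 2 after quantile normalization and 2 at an absolute log2 difference of 1 or more. By rank products 477 rows and 6 genes were called, without Ptgr1, Ptgr2 and Rgs2 and with Adgrg6, Gprc5a, Gprc5b and Htr4. Leaving out one array gave 0 to 662 rows and 0 to 7 genes: 0 rows without CD24medCD49f-/low replicate 1, and 662, 145 and 3 rows without CD24highCD49fmed replicates 1, 2 and 3. Quantile normalization called 138 rows higher and 246 lower. Whether the replicate numbers pair luminal arrays cannot be told from 2 pairs.

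Thy-1+CD24medCD49fhigh minus Thy-1-CD24medCD49fhigh had 3 rows called, and 0 with all 14 arrays in 1 fit, after median centring, after quantile normalization or with probe sets as rows. The block gave 5, in a fit with the same SE for every row. Rank products gave 163 rows and 1 gene, and leaving out one array 0 to 10 rows (most without Thy-1+CD24medCD49fhigh replicate 2). Thy-1+CD24medCD49fhigh minus CD24medCD49fmed had 0 called, 55 with the block (0 of the 57 genes), whose fit gave every row the same SE, 146 rows and 1 gene by rank products, and 0 to 856 rows and 0 to 8 genes on leaving out one array (most without Thy-1+CD24medCD49fhigh replicate 2, and 0 for the other 5 arrays). Thy-1-CD24medCD49fhigh minus CD24medCD49fmed had 0 called, 161 rows and 3 genes by rank products, and 0 to 1 row on leaving out one array (1 without CD24medCD49fmed replicate 3). The block changed no other call of the paired comparisons. No gene named by the rule changed sign under an alternative, and between luminal and basal cells they stayed on their side of the threshold in 477 gene and setting pairs and lost the call in 29. The cause of these shifts was not tested.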
